A study of Mus musculus with 6 samples.

Results

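The immediate early genes were 34 genes chosen by name, and all 34 were found by symbol among the 47069 genes of a table of read counts for mouse lung. They were compared between 3 KO mice (KO4, KO5 and KO6) and 3 WT mice (WT4, WT5 and WT6), with the spread between mice of a genotype read as a possible sign of handling. The WT mice were C57BL/6J. The KO mice carried a germline deletion of exons 1 to 3 of Zpbp2 on the C57BL/6J background, so that every cell of the lung had the deletion. According to the methods of the study, WT mice were born in the same colony, the mice were kept in a light/dark cycle, and each lung was measured on its own. The methods give adults of both sexes for the organs collected around the clock, and do not repeat this for the sequenced lungs. All 6 lungs were taken at zeitgeber time 10 (ZT10), that is 10 hours after lights on, and no mouse received a treatment named in the labels. The ages and the sex of single mice were not given in the sources used here.

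Immediate early genes are switched on within minutes of a signal, from transcription factors that are already present in the cell and without new protein synthesis. Growth factors, stretch, shear stress, cytokines and cell dissociation all act through MAP kinase cascades on serum response factor with its partners and on CREB, which bind the promoters of these genes. The first products are transcription factors of the AP-1, EGR and KLF families, and with them come phosphatases and RNA-binding proteins that shut the response down again. Because the transcripts are short-lived, the level of Fos or Egr1 RNA in a tissue is known to move with the minutes before and after death as well as with the state of the living tissue.

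The total count on genes ranged from 19981428 to 46796908 per mouse, so that 3 counts, the smallest number taken as detected, amounted to between 0.0629 and 0.148 CPM (counts scaled to the library size), a floor that covers counting error only. The deleted gene itself, Zpbp2, was read 1, 2 and 2 times in WT4 to WT6 and 0 times in every KO mouse, which is too few to check the genotype labels. The lung origin was checked by its markers. Sftpc, the surfactant protein of type 2 alveolar cells, measured between 9327 and 13765 CPM in the 6 mice, and no marker of any cell type list was at 0 in all of them. Xist lay between 15033 and 47369 counts in all 6 mice and Ddx3y, a Y-linked gene, between 0 and 9 counts. By these counts all 6 lungs read as female. A gene was called where the adjusted p-value was at most 0.05 in the quasi-likelihood test of edgeR, adjusted by Benjamini-Hochberg over the 17037 genes kept by a filter on low counts, of which 32 were immediate early genes. The p-values cover the spread between these mice, 3 of each genotype. Fosl1 (2 to 13 counts per mouse) and Egr4 (0 to 5 counts per mouse) did not pass the filter, and no comparison is made for them.

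One WT mouse stood apart from the others in these genes. In 8 of the 32 genes WT6 lay at least 1 above the mean of WT4 and WT5 on the log2 scale (Fos, Fosb, Egr1, Zfp36, Junb, Dusp1, Btg2 and Ier2), as against 0.845% of all genes tested. WT6 was the highest of the 6 mice in 16 of the 32 genes, where it was the highest in 18.0% of all genes tested. Its total of 31639503 counts lay below that of KO5 and above those of the other mice. Results that rest on WT6 are therefore given with and without it.

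Among the 32 genes tested, Klf4 fell by 41.7% and Phlda1 fell by 38.1% in KO mice relative to WT mice, and these 2 were the only ones called. No gene was called higher in KO mice. Over all genes tested, 2.67% were called lower and 3.72% higher. At an unadjusted p below 0.05 in the same edgeR test there were 11 lower and 2 higher immediate early genes, against 11.6% lower and 13.9% higher of all genes tested. DESeq2 called 5 lower and 1 higher, against 5.06% and 6.87% of the 16034 genes to which it gave an adjusted p-value. The exact test of edgeR called 3 lower and 1 higher, against 3.12% and 5.49% of all genes tested. None of the 32 genes passed both an adjusted p-value of at most 0.05 and a log2 fold change of at least 1.5 in size, as 0.640% of all genes tested did. The log2 fold change was negative in 25 genes and positive in 7, with a median of -0.25 against 0.00 over all genes tested. Without WT6 the signs were even, with 16 negative and 16 positive, 9 genes had changed sign, and the median was -0.02. WT6 was singled out for its high values in these same genes, so this shift is not an independent result.

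**Figure D1:**
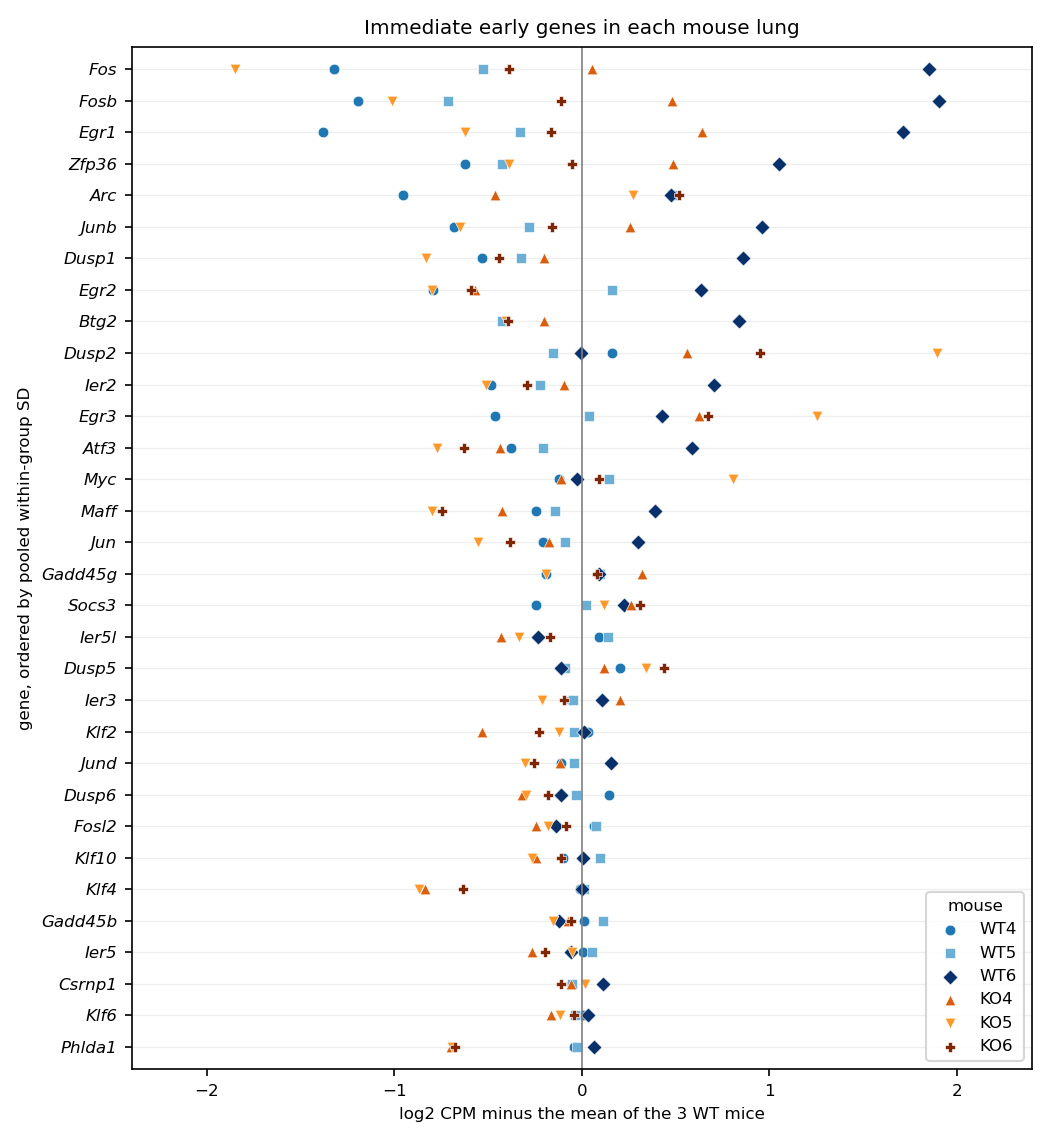
Each row is 1 of the 32 immediate early genes tested, ordered by the spread between mice, and each marker is 1 mouse (blue for WT, orange and brown for KO) at its log2 CPM minus the mean of the 3 WT mice. WT6 lies far to the right in most genes of the upper rows, though not in Arc or Dusp2. In Klf4 and Phlda1 the 3 KO mice lie together to the left of the 3 WT mice.

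The groups did not overlap in 11 of the 32 genes. All 3 KO mice were below all 3 WT mice in 9 genes (Jund, Atf3, Maff, Klf2, Klf4, Klf6, Klf10, Dusp6 and Phlda1), against 15.6% of all genes tested, and above them in 2 genes (Egr3 and Dusp2), against 17.0% of all genes. In each of these 11 genes the two-sided exact permutation test of log2 CPM gave p = 0.1, the smallest that 3 mice against 3 allow. Groups that do not overlap must give this value, so that it adds nothing to the count. Without WT6 the groups were apart in 12 genes with KO lower (20.5% of all genes) and in 4 with KO higher (21.3% of all genes). Fosl2, Ier5, Ier5l and Gadd45b joined the genes with KO lower, and Zfp36 and Socs3 joined those with KO higher. Jund then overlapped, only because the libraries were scaled anew in that fit.

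Promoter sequences of 3 genes are shown, each with the 250 bases before the annotated start site, because the results turn on Klf4, which was called, and on Fos and Junb, in which WT6 stood apart. They were read from RefSeq sequences of the GRCm38.p6 build, 5′ to 3′ along the gene's own strand. Capitals mark matches to the cyclic AMP response element in its short form TGACG, to the TATA box TATAAA and to the EGR sites GCGTGGGCG and GCGGGGGCG, searched on both strands, so that a match on the other strand reads as CGTCA or CGCCCCCGC.
Klf4 (chr4:55532476-55532725, minus strand): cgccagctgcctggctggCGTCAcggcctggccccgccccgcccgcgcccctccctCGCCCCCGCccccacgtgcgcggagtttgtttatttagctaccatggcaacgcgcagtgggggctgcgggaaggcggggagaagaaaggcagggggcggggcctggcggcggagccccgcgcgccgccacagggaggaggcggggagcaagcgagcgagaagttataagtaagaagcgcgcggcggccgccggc
Fos (chr12:85473640-85473889, plus strand): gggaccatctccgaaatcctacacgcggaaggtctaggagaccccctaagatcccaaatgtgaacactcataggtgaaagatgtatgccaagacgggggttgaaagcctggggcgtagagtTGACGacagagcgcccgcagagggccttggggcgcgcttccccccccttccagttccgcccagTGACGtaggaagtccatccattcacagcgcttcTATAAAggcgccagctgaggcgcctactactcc
Junb (chr8:84978749-84978998, minus strand): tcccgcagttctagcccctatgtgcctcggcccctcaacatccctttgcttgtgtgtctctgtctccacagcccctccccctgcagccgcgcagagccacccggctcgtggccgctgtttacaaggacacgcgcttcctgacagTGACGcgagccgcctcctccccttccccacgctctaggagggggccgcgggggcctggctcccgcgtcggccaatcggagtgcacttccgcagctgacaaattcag

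Of the 34 genes, 26 had a window in the RefSeq table (Arc, Egr1, Egr3, Fosl1, Ier2, Klf10, Myc and Phlda1 did not), and 32851 windows of all genes were searched in the same way. The short form TGACG was found in 13 of the 26 windows and in 17.8% of all windows. It is part of the full cyclic AMP response element TGACGTCA, which was found in Dusp1, Btg2 and Maff and in 1.55% of all windows. The CArG box, the letters bound by serum response factor, was found in Egr2, Dusp5 and Zfp36 and in 1.47% of all windows. An EGR site was found in 8 of the 26 windows, Klf4 among them, and in 3.06% of all windows. TATAAA was found in Fos, Gadd45b and Gadd45g and in 12.4% of all windows, and the AP-1 site TGANTCA was found in Csrnp1 and in 6.75% of all windows. A match describes the letters of a window and is not a measurement of binding. A window without a match does not mean that the gene lacks the site, because only 250 bases before the start site were searched.

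The AP-1 genes encode the Fos and Jun proteins, which bind DNA as dimers, and the related factors Atf3, a stress-induced repressor of many inflammatory genes, and Maff, a small Maf protein without an activation domain. None of the 8 AP-1 genes tested was called in either direction by edgeR's quasi-likelihood test. In the same genes 4 were lower and 0 higher at an unadjusted p below 0.05, DESeq2 called 2 lower (Jun and Maff), and the exact test called 1 lower (Maff). For this family and those below, the shares of all genes were 11.6% lower and 13.9% higher at an unadjusted p below 0.05. They were 5.06% and 6.87% with DESeq2, and 3.12% and 5.49% with the exact test. All 8 had negative log2 fold changes, from -1.21 to -0.17, and those of Fos, Fosb and Junb were positive without WT6.

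Fos, the prototype of the class (chromosome 12 from 85473890 to 85477273), measured 17.95, 31.1 and 162 CPM in WT4, WT5 and WT6 and 46.7, 12.4 and 34.4 CPM in KO4, KO5 and KO6, from 446 to 5019 counts per mouse. WT6 was thus 9.04 times WT4, the KO mice differed among themselves by 3.76 times, and the groups overlapped, with KO4 and KO6 above both WT4 and WT5. The log2 fold change was -1.21 (standard error, SE, 0.841, adjusted p = 0.414 in edgeR's test) with all 6 mice and 0.33 (SE 0.555, adjusted p = 0.786) without WT6. Fosb, its close relative, had the same order of mice at the top, at 1.97, 2.78 and 17.4 CPM in WT4 to WT6 and 6.45, 2.24 and 4.25 CPM in KO4 to KO6. Its log2 fold change turned from -0.82 to 0.84 without WT6, and neither value was called.

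Junb, a Jun protein whose transcript is induced as fast as that of Fos, measured 46.5, 61.3 and 145 CPM in WT4 to WT6 and 89.0, 47.4 and 66.7 CPM in KO4 to KO6. Jun (chromosome 4 from 95049034 to 95052222), the main partner of Fos, measured 337, 365 and 478 CPM in WT4 to WT6 and 344, 265 and 298 CPM in KO4 to KO6. WT6 was again the highest in both, but its excess over the other WT mice was 1.44 on the log2 scale in Junb and 0.45 in Jun. The groups overlapped in Jun because KO4 lay above WT4, and its log2 fold change was -0.38 (SE 0.148, adjusted p = 0.164 in edgeR's test, and 0.04997 in DESeq2). Without WT6 it was -0.22 (SE 0.120, adjusted p = 0.369 in edgeR's test). The cause of the difference between the tests was not tested.

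Jund, which is made at a steady level in most cells, measured 247, 259 and 297 CPM in WT4 to WT6 and 246, 216 and 223 CPM in KO4 to KO6. The groups were apart by less than 1 CPM between KO4 and WT4, and the log2 fold change of -0.23 was not called (SE 0.0854, adjusted p = 0.151 in edgeR's test). Without WT6 the log2 fold change of Jund was -0.15 (SE 0.0768, adjusted p = 0.338 in edgeR's test). The groups overlapped in that fit only because the libraries were scaled anew, as KO4 and WT4 were nearly equal. Per kilobase of annotated exon, the scale on which levels of different genes can be compared, Jund was the highest of the immediate early genes in WT mice at 161 CPM per kb, followed by Jun at 123 and Klf2 at 111. Fosl2, also called Fra-2, lay between 74.8 and 93.2 CPM in the 6 mice with a log2 fold change of -0.17.

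Atf3 measured 9.34, 10.5 and 18.3 CPM in WT4 to WT6 and 8.99, 7.11 and 7.85 CPM in KO4 to KO6. Maff measured 27.5, 29.5 and 42.7 CPM in WT4 to WT6 and 24.2, 18.7 and 19.5 CPM in KO4 to KO6. In both genes every KO mouse was below every WT mouse, and WT6 was the highest. Maff had a log2 fold change of -0.68 (SE 0.183), which missed the threshold in edgeR's quasi-likelihood test (adjusted p = 0.0714) and passed it in 3 of 13 alternatives, with adjusted p-values from 0.00398 to 0.163. Atf3 had the same log2 fold change of -0.68 with a larger SE of 0.258 (adjusted p = 0.154). Without WT6 the log2 fold changes were -0.46 for Maff and -0.32 for Atf3.

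The EGR genes encode zinc finger factors that are induced with Fos, of which Egr1 is the most abundant in many tissues and Egr2 and Egr3 are best known from lymphocytes and nerve. None of the 3 tested was called by edgeR's quasi-likelihood test. At an unadjusted p below 0.05 there was 1 lower and 1 higher, and DESeq2 and the exact test called 0 in either direction. Egr1 measured 13.6, 28.2 and 116 CPM in WT4 to WT6 and 55.3, 23.0 and 31.7 CPM in KO4 to KO6. It repeated the order of Fos at the top, with WT6 first and KO4 second, and its log2 fold change was -0.55 (SE 0.734) with all 6 mice and 0.81 (SE 0.461, adjusted p = 0.381 in edgeR's test) without WT6. Egr2 ranged from 4.67 to 12.7 CPM in WT mice and from 4.66 to 5.48 CPM in KO mice.

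Egr3 went the other way, at 0.926, 1.34 and 1.78 CPM in WT4 to WT6 and 2.05, 3.21 and 2.12 CPM in KO4 to KO6, from 23 to 153 counts per mouse. All KO mice were above all WT mice, with KO5 the highest, and the log2 fold change was 0.88 (SE 0.294, adjusted p = 0.122 in edgeR's test). KO5 was the highest of the 6 mice in 3 of the 32 genes (Egr3, Dusp2 and Myc), against 25.6% of all genes tested. It was the lowest of the 6 in 13 of the 32, and the share of all genes in which it was lowest was not counted. The summed level of 8 B cell markers was also highest in KO5, at 1012 CPM, against 234 CPM in KO4, 284 CPM in KO6 and between 128 and 137 CPM in WT mice. The part of B cells in the levels of these genes was not tested.

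**Figure D2:**
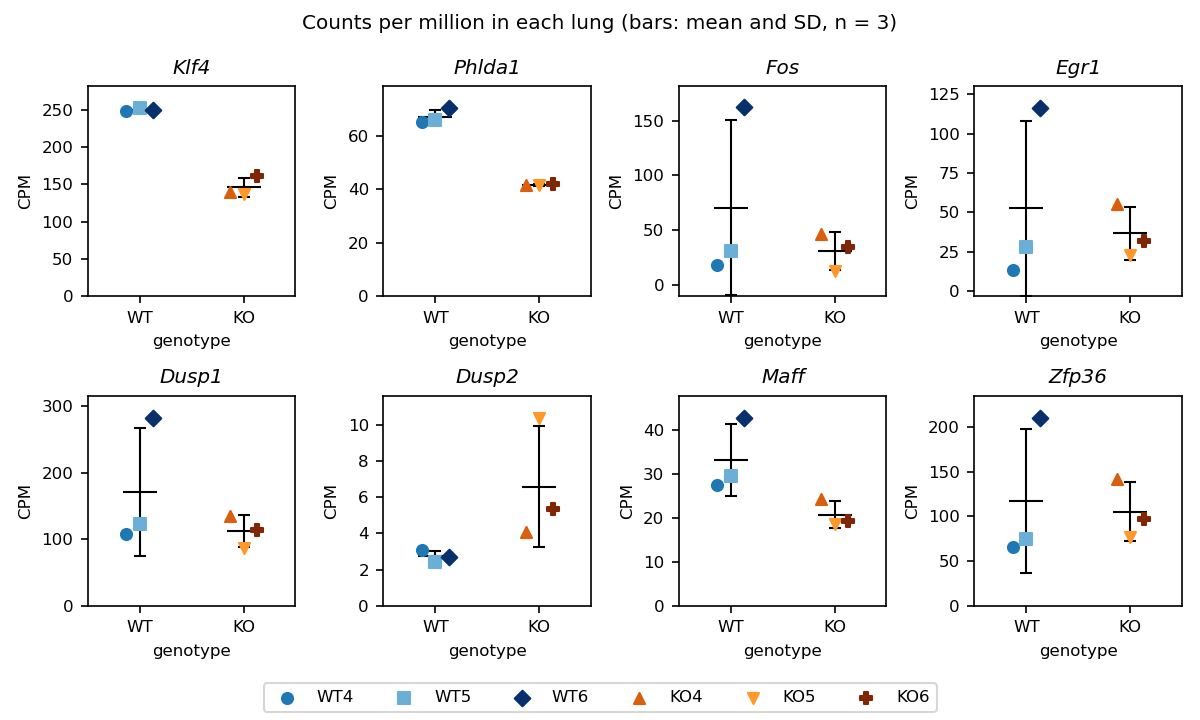
CPM of 8 immediate early genes in each mouse (markers), with the mean and SD of the 3 mice of each genotype (black bars), on linear axes that include 0. In Klf4 and Phlda1 the groups are apart with little spread, in Fos, Egr1, Dusp1 and Zfp36 WT6 lies above all others, and in Dusp2 the highest value is that of KO5.

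The KLF genes encode zinc finger factors that bind GC-rich promoters. Klf2 and Klf4 are induced by shear stress in endothelium, where they restrain inflammation, and Klf4 also acts in epithelial differentiation. All 4 KLF genes had every KO mouse below every WT mouse, as 15.6% of all genes tested did (20.5% without WT6), and 1 of the 4, Klf4, was called, where 2.67% of all genes tested were called lower. Klf4 (ENSMUSG00000003032, chromosome 4 from 55527143 to 55532466) measured 248.6, 252 and 250.01 CPM in WT4 to WT6 and 139.8, 137 and 161 CPM in KO4 to KO6. The WT mice were nearly equal, and the KO mouse nearest to them, KO6, was far below the lowest of them. The means were 250.2 ± 1.68 CPM in WT mice and 146 ± 13.2 CPM in KO mice (SD, n = 3), a log2 fold change of -0.78 (SE 0.0705, adjusted p = 0.00665 in edgeR's test).

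Klf4 was called in 12 of 13 alternatives and in 5 of the 6 fits made with 1 mouse removed, with log2 fold changes from -0.86 to -0.74. The exception was the fit without WT5 (adjusted p = 0.0574), in which 1 gene of the whole table was called. Without WT6, which was not high in this gene, the log2 fold change was -0.78 (adjusted p = 0.0419). In a whole lung, fewer cells of a type that makes a transcript and less of it per cell cannot be told apart. The 8 endothelial markers summed to between 4225 and 4653 CPM in WT mice and between 3923 and 4734 CPM in KO mice, with KO4 the highest of the 6, and 1 of the 8 was called lower (Cldn5, log2 fold change -0.31). The part of the endothelial share in the level of Klf4 was not tested.

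Klf2 measured 209, 199 and 206 CPM in WT4 to WT6 and 141, 188 and 175 CPM in KO4 to KO6. Klf6, a factor expressed in most tissues, measured 269, 261 and 274 CPM in WT4 to WT6 and 239, 247 and 260.4 CPM in KO4 to KO6. Klf10, which is induced by TGF-beta, measured 43.4, 49.9 and 46.9 CPM in WT4 to WT6 and 39.4, 38.7 and 43.3 CPM in KO4 to KO6. In these 3 genes the groups were apart by narrow margins, and none of the differences was called. The log2 fold changes were -0.28 (adjusted p = 0.142), -0.11 (adjusted p = 0.263) and -0.21 (adjusted p = 0.129), in the same order. The spread between mice was small in Klf6, with a pooled SD of 0.0498 on the log2 scale, the second smallest after Phlda1.

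The IER genes carry the name of the response itself, and they encode small proteins such as Ier2 and Ier5, which act in the nucleus, and Ier3, which affects cell survival. None of the 4 was called by edgeR's quasi-likelihood test, in which 1 was lower and 0 higher at an unadjusted p below 0.05, and DESeq2 and the exact test called 0. Ier2 measured 39.1, 46.9 and 89.3 CPM in WT4 to WT6 and 51.3, 38.4 and 44.6 CPM in KO4 to KO6. WT6 was the highest of the 6 mice and KO4 the second, and the log2 fold change moved from -0.39 to 0.05 without WT6. Ier3 lay between 86.8 and 116 CPM, Ier5 between 72.9 and 91.2 CPM and Ier5l between 7.23 and 10.8 CPM in the 6 mice.

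Myc, a factor that drives growth and division, measured 7.29, 8.77 and 7.79 CPM in WT4 to WT6 and 7.33, 13.9 and 8.44 CPM in KO4 to KO6. KO5 alone lay well above the rest, and without it the log2 fold change moved from 0.33 to -0.01. Csrnp1, a nuclear protein induced by Axin, was among the steadiest genes, at 26.5, 26.5 and 29.8 CPM in WT4 to WT6 and 26.4, 27.9 and 25.5 CPM in KO4 to KO6, with a log2 fold change of -0.05 (SE 0.0730). Arc, which is known from neurons, had 9 to 45 counts per mouse and a log2 fold change of 0.04 with a SE of 0.448.

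The feedback genes were mixed. The DUSP genes encode phosphatases that remove phosphate from MAP kinases: Dusp1 acts on p38, JNK and ERK, Dusp2 on MAP kinases in blood cells, and Dusp5 and Dusp6 on ERK in the nucleus and in the cytoplasm. None of the 4 was called by edgeR's quasi-likelihood test. At an unadjusted p below 0.05 there was 1 lower (Dusp6) and 1 higher (Dusp2), DESeq2 called the same 2 genes, and the exact test called Dusp2.

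Dusp1 measured 107, 124 and 281 CPM in WT4 to WT6 and 135, 87.2 and 114 CPM in KO4 to KO6. Without WT6, which was the highest mouse, its log2 fold change shrank from -0.61 (SE 0.365) to -0.04 (SE 0.186), and neither was called. Dusp6 measured 119.6, 106 and 100.2 CPM in WT4 to WT6 and 86.7, 88.2 and 95.5 CPM in KO4 to KO6, with the groups apart and a log2 fold change of -0.27 (SE 0.0766, adjusted p = 0.0829 in edgeR's test). Dusp5 lay between 8.64 and 12.7 CPM in the 6 mice, with a log2 fold change of 0.30.

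Dusp2 (chromosome 2 from 127336159 to 127338376) had the largest positive log2 fold change of the immediate early genes. It measured 3.06, 2.44 and 2.72 CPM in WT4 to WT6 and 4.06, 10.3 and 5.33 CPM in KO4 to KO6. The WT mice were close together, all KO mice lay above them, and KO5, with 493 counts, lay 1.14 above the mean of the other KO mice on the log2 scale. The log2 fold change was 1.28 (SE 0.344, adjusted p = 0.0720 in edgeR's test), and it was 0.77 without KO5. It passed the threshold in 4 of 13 alternatives, with adjusted p-values from 0.00560 to 0.223. KO5 was also the mouse with the highest sum of B cell markers, as given for Egr3.

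Zfp36, or tristetraprolin, binds AU-rich elements and speeds the decay of transcripts such as Fos and Tnf. It measured 65.7, 75.1 and 209 CPM in WT4 to WT6 and 141, 77.2 and 97.4 CPM in KO4 to KO6. Without WT6 all KO mice lay above both WT mice, and the log2 fold change turned from -0.16 (SE 0.453) to 0.58 (SE 0.255, adjusted p = 0.274 in edgeR's test). Btg2, an antiproliferative protein that promotes the removal of poly(A) tails, lay between 121 and 141 CPM in 5 mice and at 290.1 CPM in WT6. Socs3, which blocks signalling by the interleukin-6 receptor, lay between 25.6 and 35.4 CPM in WT mice and between 32.9 and 37.7 CPM in KO mice. Gadd45b and Gadd45g, stress sensors upstream of p38 and JNK, had log2 fold changes of -0.10 and 0.07.

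Phlda1 encodes a protein with a pleckstrin homology-like domain that is induced by growth factors and ERK. It had the lowest adjusted p-value of the immediate early genes and the smallest spread between mice. Phlda1 (ENSMUSG00000020205, chromosome 10 from 111506286 to 111508645) measured 65.2, 66.0 and 70.2 CPM in WT4 to WT6 and 41.4, 41.4 and 41.9 CPM in KO4 to KO6, from 847 to 2171 counts per mouse. The KO mice were nearly equal, and the groups were far apart for their spread. The means were 67.1 ± 2.69 CPM in WT mice and 41.6 ± 0.296 CPM in KO mice (SD, n = 3), a log2 fold change of -0.69 (SE 0.0495, adjusted p = 0.00466 in edgeR's test). It was called in 12 of 13 alternatives, again with the exception of the fit without WT5 (adjusted p = 0.0544), and without WT6 the log2 fold change was -0.66 (adjusted p = 0.0242). Exons of Gm28592 overlap Phlda1 on the opposite strand, and Gm28592 had 5 to 13 counts per mouse. Without WT6, Klf4 and Phlda1 were again the only immediate early genes called, as against 0.223% of all genes called lower and 0.153% called higher.

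**Figure D3:**
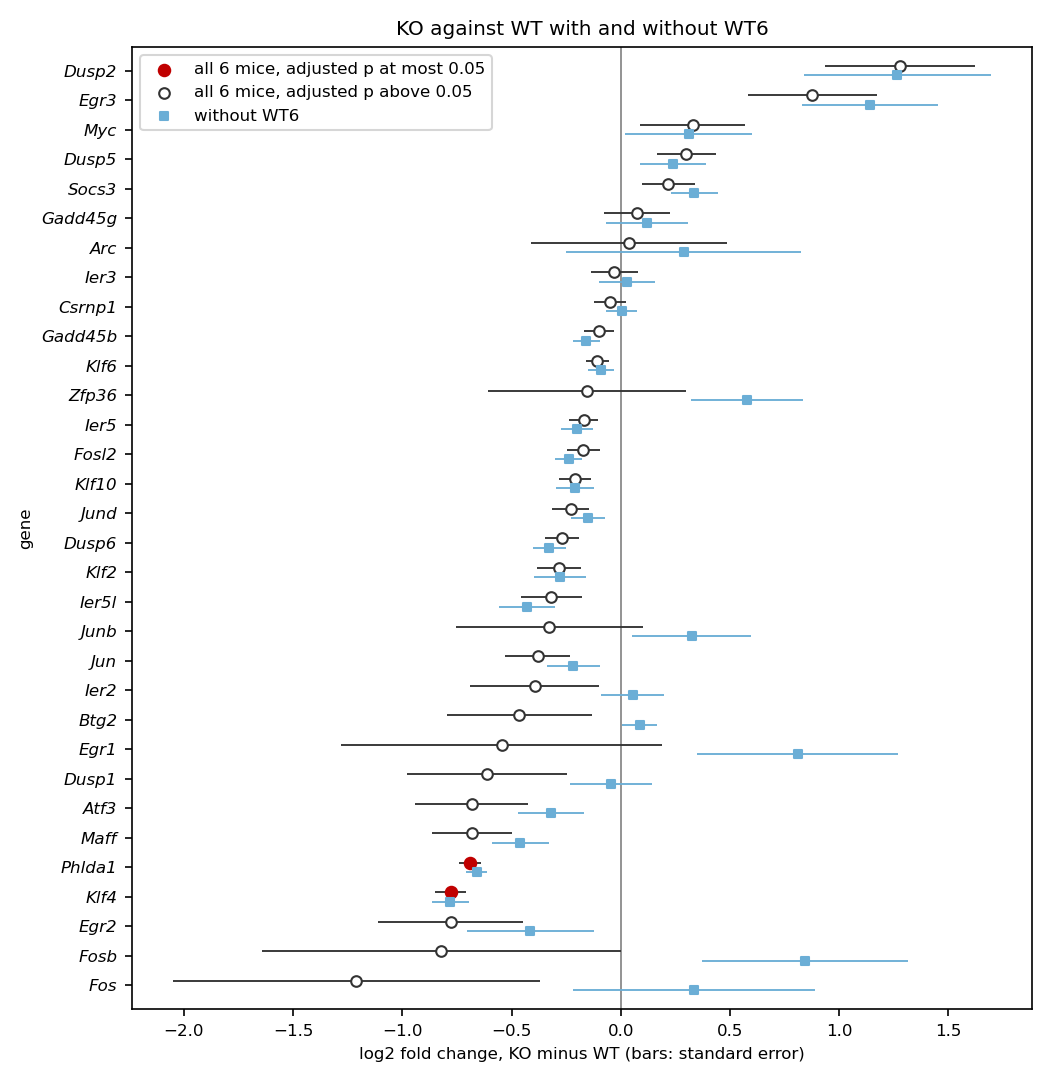
The log2 fold change of KO against WT mice in edgeR's quasi-likelihood fit, with its SE, for the 32 immediate early genes with all 6 mice (circles, filled where the adjusted p-value was at most 0.05) and without WT6 (blue squares). Klf4 and Phlda1 hardly move when WT6 is left out, while Fos, Fosb, Egr1, Junb and Zfp36 cross from below 0 to above it.

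The spread between mice of a genotype was measured as the pooled within-group SD of log2 CPM. Its median over the 32 genes was 0.222, against 0.127 over all genes tested, and it was above 0.5 in 9 of the 32 genes against 6.57% of all genes tested. The largest values were those of Fos (1.36), Fosb (1.29) and Egr1 (1.20), and the smallest those of Phlda1 (0.0411), Klf6 (0.0498) and Csrnp1 (0.0816). Wide and narrow spreads were thus both found within this class. Without WT6 the median was 0.173 (0.123 over all genes), and 5 of the 32 genes were above 0.5 (7.19% of all genes). As WT6 was singled out in these genes, the smaller spread without it is no separate result.

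In the 8 genes in which WT6 stood apart, its excess over the mean of WT4 and WT5 was 2.86 in Fosb, 2.78 in Fos, 2.57 in Egr1, 1.57 in Zfp36, 1.44 in Junb, 1.29 in Dusp1, 1.26 in Btg2 and 1.06 in Ier2, on the log2 scale. These genes were chosen by the value of WT6 against WT4 and WT5, so that its rank in them is no result. The choice also favours genes in which WT4 and WT5 are low. The place of the KO mice above them, and the sign without WT6, are therefore not independent of it. Nor are the 8 genes separate readings of a mouse. The other mice had a shared order too. KO4 was the highest KO mouse in 8 of the 8 genes and lay above both WT4 and WT5 in 8 of them. KO6 lay above both in 6 and KO5 in 2, and WT4 lay below WT5 in 7. Over all 32 genes KO4 was the highest KO mouse in 15. The shares of all genes tested were not counted for these orders. Without WT6 the log2 fold change was positive in 7 of the 8 genes, with adjusted p-values from 0.274 (Zfp36) to 0.874 (Ier2) in edgeR's test.

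**Figure D4:**
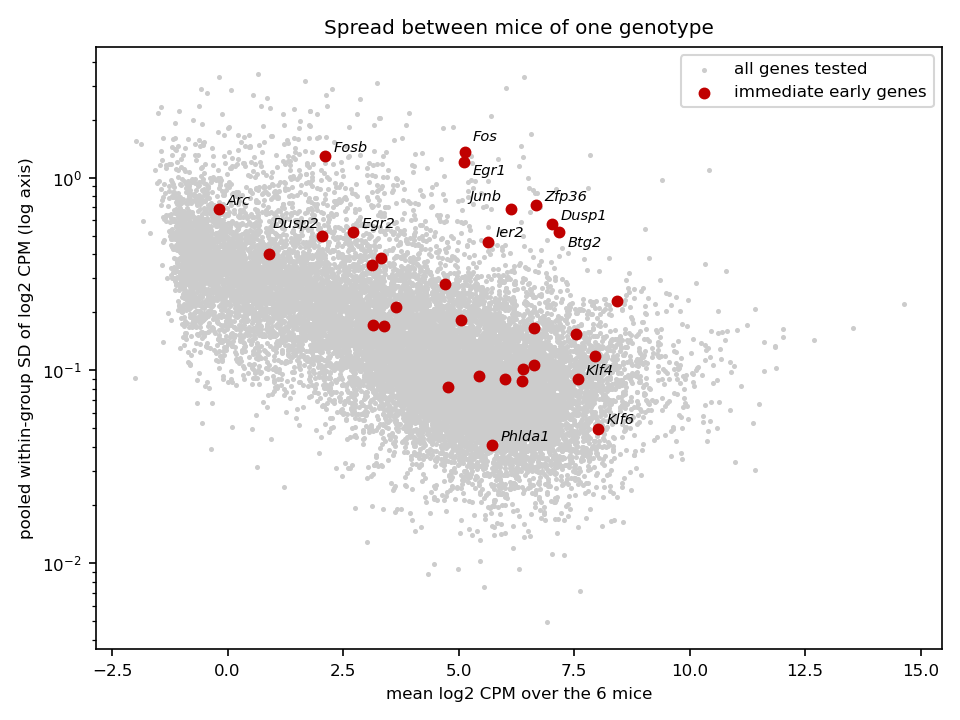
The pooled within-group SD of log2 CPM (log axis) against the mean log2 CPM over the 6 mice, for all genes tested (grey) and for the 32 immediate early genes (red). Fos, Egr1, Junb, Zfp36, Dusp1 and Btg2 lie above most genes of their level, and Phlda1 and Klf6 lie among the genes with little spread.

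Lists of genes around the response were read from the same fit. For these lists and the cell types below, 2.67% of all genes tested were called lower and 3.72% higher (0.223% and 0.153% without WT6). At an unadjusted p below 0.05 the shares were 11.6% and 13.9%, with DESeq2 5.06% and 6.87%, and with the exact test 3.12% and 5.49%. In a short list a count of 1 or a few is a coarse reading beside these shares. No list was tested as a set. Of 24 genes of the MAP kinase cascade and the serum response factor complex, 1 was called lower (Hras, a GTPase that starts the ERK cascade, log2 fold change -0.30) and 0 higher. At an unadjusted p below 0.05 there were 3 lower and 3 higher, DESeq2 called 2 lower and 3 higher, and the exact test called 1 in each direction. Their median log2 fold change was 0.03, and their median pooled SD of 0.0802 was below that of the immediate early genes. Of 21 further genes of feedback and RNA decay, 3 were called lower (Dusp8 at -0.77, Errfi1 at -0.37 and Tob1 at -0.31) and 1 higher (Tnfaip3, which restrains NF-kappaB, at 0.69). Of 39 other early response genes tested of 40, 4 were called lower and 1 higher, and those lower were Nr4a3 (-1.39), Id1 (-0.62), Crem (-0.43) and Id3 (-0.35), with Rgs2 (0.52) higher. In 5 of these 39 genes WT6 lay at least 1 above the mean of the other WT mice on the log2 scale, and they were, named after their values were seen, Nr4a1, Rgs1, Cyr61, Cxcl1 and Cxcl2. Without WT6, 0 genes of the cascade, 1 of the feedback list (Dusp8) and 1 of the other early genes (Nr4a3) were called, each lower, and without WT5 only 1 gene of the whole table was.

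Heat shock genes were the list with the most calls. Of 12 such genes, which encode chaperones and their partners, 10 were called lower, among them Hsph1 (-1.90), Dnaja1 (-1.22), Hspa8 (-1.15), Dnajb1 (-1.12) and Hsp90ab1 (-0.87), with a median log2 fold change of -1.14. Their summed level was 4672, 5146 and 6287 CPM in WT4 to WT6 and between 2528 and 2672 CPM in KO mice, so that WT6 was the highest here as well. Without WT6 the median was -1.01 and 7 of the 12 were called. Of 10 glucocorticoid response genes, 2 were called lower (Fkbp5 at -1.33 and Sgk1 at -0.31), and 0 without WT6. The part of these programs in the levels of the immediate early genes was not tested.

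Markers of other cell types also differed between the genotypes. The 5 red blood cell markers were all called lower (sums of 2126 to 2277 CPM in WT mice and 1035 to 1411 CPM in KO mice), and 8 of 10 monocyte markers (1697 to 1730 and 1725 to 2085 CPM), 3 of 6 neutrophil markers tested (56.4 to 94.7 and 149 to 168 CPM), 1 of 6 alveolar macrophage markers (567 to 883 and 679 to 902 CPM) and 1 of 6 NK cell markers (24.8 to 36.6 and 39.2 to 53.2 CPM) were called higher. Most of the monocyte sum came from Ace, named after its values were seen, which was not called (log2 fold change 0.01). Ace measured 1438, 1477 and 1430 CPM in WT4 to WT6 and 1640, 1354 and 1393 CPM in KO4 to KO6. The median log2 fold change of the 10 monocyte markers was 1.06, so their sums hide the rise of those called. Nr4a1 was counted both as a monocyte marker and as an early response gene. Without WT6 the counts were 0 for red blood cells, 0 for monocytes, 2 for neutrophils, 1 for alveolar macrophages and 0 for NK cells. In addition to Cldn5, Rtkn2 of the 6 type 1 alveolar markers was called lower, and without WT6 Rtkn2 was called and Cldn5 was not. No marker of type 2 alveolar cells, club cells, smooth muscle cells, fibroblasts, cardiac muscle cells, B cells or T cells was called by edgeR's quasi-likelihood test. In these lists 2, 1, 5, 2, 0, 0 and 0 markers were lower and 0, 0, 0, 0, 0, 8 and 7 higher at an unadjusted p below 0.05, DESeq2 called 2, 1, 4, 2, 0, 0 and 0 lower and 6 B cell and 5 T cell markers higher, and the exact test called 0, 0, 1, 1, 0, 0 and 0 lower and 8 and 2 higher. The part of cell composition in the levels of the immediate early genes was not tested.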

How the data were processed

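RNA from 6 lungs had been prepared with a stranded mRNA kit per the labels. The authors trimmed the reads, aligned them to GRCm38 and counted them in the GenPipes pipeline, and the submitters' processing notes name Trimmomatic 0.36, STAR 2.5.3a, Picard 2.9.0 and HTSeq 0.6.0. The deposited values are whole counts per Ensembl gene with no normalization, 1 column per mouse. The annotation release and the strand setting of the counting are not given in the sources used here, so the 9 genes whose exons overlap a gene on the opposite strand (Fosl1, Jun, Junb, Jund, Dusp1, Dusp5, Zfp36, Phlda1 and Csrnp1) carry that uncertainty. Per mouse, Prdx2 (opposite Junb) had 1820 to 4011 counts, Ergic1 (opposite Dusp1) 1374 to 2971 and Ccdc85b (opposite Fosl1) 1085 to 2708. Junos (opposite Jun) had 146 to 399 and Gm11175 (opposite Jund) 27 to 119. The partners of Dusp5, Zfp36 and Csrnp1 had no row in the counts.

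Groups were taken from the labels. KO and WT mice were compared in R 4.3.3 with edgeR 4.0.16 (glmQLFit and glmQLFTest, TMM, filterByExpr with a minimum count of 10 and a minimum total of 15, Benjamini-Hochberg adjustment over all genes kept), with all 6 libraries and no covariate. The standard error is the size of the log2 fold change divided by the square root of F. CPM used TMM-scaled library sizes, and log2 CPM a prior count of 2. Alternatives were DESeq2 1.42.0, the edgeR exact test, DESeq2 size factors, upper-quartile factors, a filter of 10 or more counts in every library, no filter, a prior count of 0.5, the replicate number as a block, and each mouse left out. On simulated counts of 16836 to 16868 genes for this comparison, in 5 sets that each held 200 altered genes (log2 difference of 2 in size), 94.5% of the altered genes were recovered with 6.12% false calls. The largest log2 fold change of the immediate early genes was 1.28 (Dusp2), and recovery of differences of that size or smaller was not measured.

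Values in every mouse are given for genes that were called, genes whose groups did not overlap, 11 classic members, and the 3 genes with the largest and the 3 with the smallest spread. From the lists only called genes are named, up to 6 a list, unless stated. The members and the lists were chosen with earlier results of these data known. Positions and exon lengths are from GENCODE mouse release 21, and promoter sequences from RefSeq. Python 3.11.15 (pandas 2.3.3, NumPy 2.4.6 and Matplotlib 3.10.9) was used for tables and figures.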

Additional observations from a re-analysis of the deposited data

How the results depend on the processing

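The number of immediate early genes called lower in KO mice was 2 with all 6 mice and 5 with DESeq2, and it ranged from 0 (without WT5) to 2 when each mouse was left out. The number called higher was 0, and it was 1 (Dusp2) with no filter, with the edgeR exact test and with DESeq2, and 0 to 1 when each mouse was left out. Over all genes 1089 were called, 1913 with DESeq2, 66 with the replicate block, and between 1 (without WT5) and 1314 (without KO4) when each mouse was left out. The replicate block left the counts of immediate early genes at 2 lower and 0 higher, and turned the log2 fold change of Zfp36 to 0.0105. The deviations of same-numbered KO and WT mice from their group means correlated with r of -0.03, -0.15 and -0.02 across genes, and no mouse correlated best with its own number, so the numbers were not taken to pair the mice. The median log2 fold change of the 32 genes ranged from -0.29 to -0.0198 when each mouse was left out. In the same fits 12 genes changed sign: Fos (-1.66 to 0.33), Fosb (-1.27 to 0.84), Junb (-0.62 to 0.32), Egr1 (-0.998 to 0.81), Ier2 (-0.61 to 0.0547), Ier3 (-0.17 to 0.0554), Zfp36 (-0.44 to 0.58), Btg2 (-0.68 to 0.0863), Myc (-0.0133 to 0.49), Gadd45g (-0.0677 to 0.20), Csrnp1 (-0.0916 to 0.00506) and Arc (-0.32 to 0.29). None of the 12 was called with all 6 mice. Causes were not tested. With 3 mice in each group an exact permutation test cannot give a p below 0.1, and Arc and Egr3 rest on 9 to 153 counts per mouse.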
